A study of Mus musculus with 42 samples.

Results

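The samples described here are 6 livers of mice fed a high-fat diet (HFD), 3 collected at Zeitgeber time (ZT) 0 and 3 at ZT 20, out of 42 RNA sequencing libraries. They were chosen by diet and collection time alone, and no measured value entered the choice. Both groups were female C57BL/6 mice (C57BL/6NHsd in the study's methods) that began the diet at 3 weeks of age and ate it for 3 weeks. Soybean oil was the fat of the diet, which supplied 45% of its energy as fat. Lights came on at ZT 0 and went off at ZT 12, so ZT 20 is late in the dark, active phase and ZT 0 is dawn. The mice were housed in groups and were not fasted. Collection of the series ran over more than a day. The comparison asks which liver transcripts differ between the late night and dawn on the HFD. Below, fell and rose mean lower and higher at ZT 0 than at ZT 20, not an order of collection. The labels say only that the samples are separate, so p-values measure the spread between 3 samples a group.

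In mammalian liver the circadian clock is a loop of transcription. CLOCK or NPAS2 pairs with BMAL1 (the product of Arntl) and activates genes through E-box sequences, among them the Period and Cryptochrome genes, whose proteins then repress the pair. The nuclear receptors REV-ERB and ROR repress and activate Arntl, and the PAR bZIP factors DBP, TEF and HLF act through D-box sequences and carry the rhythm to metabolic genes.

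Total counts per library ranged from 15123633 to 17857479. Hepatocyte markers took 16.2% to 19.3% of the counts, and Alb, the hepatocyte gene for serum albumin, was at 70010 CPM (the gene's count relative to the library's total, with totals scaled by TMM, a trimmed mean of ratios) or above in all 6 livers. The hepatocyte gene Ttr, which encodes transthyretin, was at 4760 to 6561 CPM. Adipoq and Lep, hormone genes of fat cells, reached at most 0.404 and 0.061 CPM. Transcripts of Kupffer cells and macrophages took 0.0583% to 0.0792% of the counts at ZT 20 and 0.0766% to 0.151% at ZT 0, with the highest share in ZT 0 replicate 1. The marker list had 12 members tested, and all 12 had a fold change above 0, with a median log2 fold change of 0.25. The part of these cells in any difference below was not tested. In bulk liver, fewer cells of a type and less RNA per cell cannot be told apart. The titles of the ZT 0 libraries carry numbers from 44 to 48 and those of ZT 20 from 25 to 36. What the numbers mark is not stated, and these number blocks and the time points cannot be told apart.

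Several clock genes had lower transcript levels in the dawn livers than in the late-night livers. Of 12037 genes tested, 13 passed an adjusted p of 0.05 in edgeR's quasi-likelihood test, which is 0.108% of the genes. Of the 13, 12 are described here. Among all 13, only Hectd2os rose from ZT 20 to ZT 0, and the others fell. The clock genes Tef, Per3, Cry1, Dbp, Bhlhe40 and Per2 were among those that fell. The clock lists together had 17 members tested. In all 13 genes the 3 values at ZT 0 lay outside the range of the 3 values at ZT 20. A small p from these same values makes that likely, so it adds no support. Of all genes tested, 6.94% were higher at ZT 0 without overlap and 6.80% lower. The median log2 fold change over all genes was 0.003, and 1009 genes had an unadjusted p under 0.05. DESeq2 called 32 genes higher (0.266%) and 63 lower (0.524%), and these included all 13. Of the 17 clock members tested, 10 were among those 95 calls (2 higher, 8 lower), and the rest of the calls were of other genes. When the 18 HFD libraries of ZT 0 to ZT 20 shared 1 estimate of the spread, 1 call was left, and with the 3 ZT 12 libraries left out of that fit there were 9, of which 8 were among the 13. Without ZT 20 replicate 1, 2 or 3 there were 3, 4 or 20 calls, and without ZT 0 replicate 2 there were 3. Of the 3 ZT 12 livers, replicate 3 stood apart from the other two in clock transcripts.

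**Figure D1:**
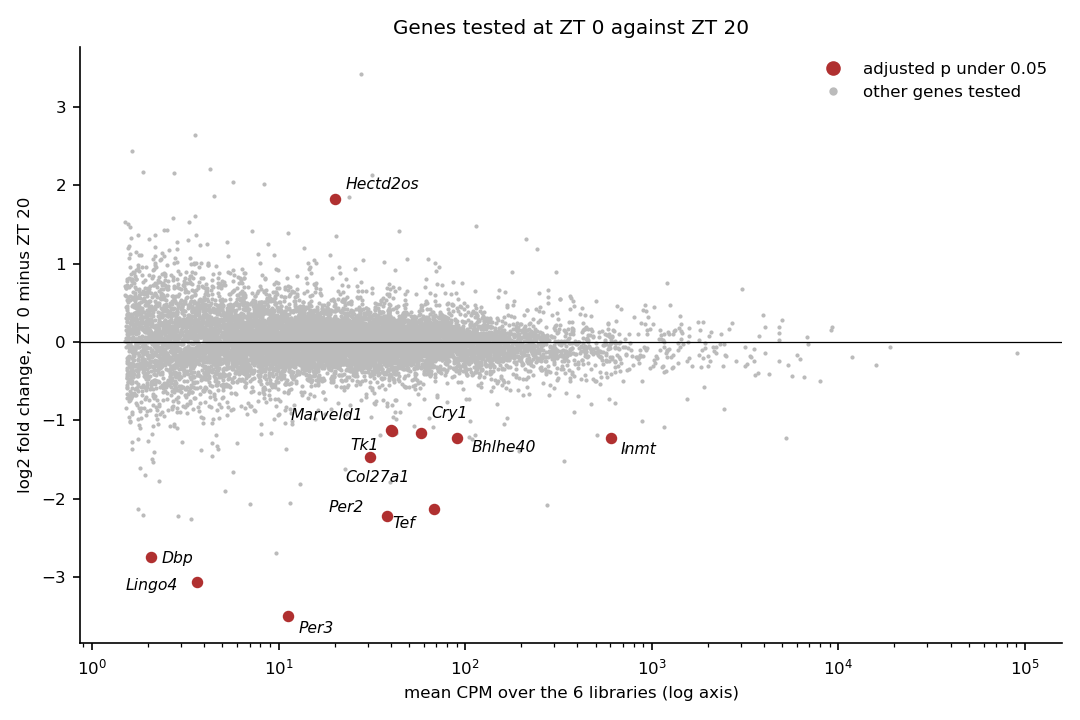
Log2 fold change (ZT 0 minus ZT 20, vertical) against the mean CPM over the 6 libraries (horizontal, log axis) for genes tested. The 12 genes past the threshold that are described here are named, and 11 of them lie below 0, with Hectd2os the 1 gene above it.

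Among the clock repressors, Per3, Per2, Cry1 and Bhlhe40 fell. Per3 is a Period gene on chromosome 4 (151003652 to 151044665, minus strand, mm10). Its level was 31.7, 14.9 and 15.4 CPM in ZT 20 replicates 1, 2 and 3, and 2.39, 1.79 and 1.32 CPM in the ZT 0 replicates. ZT 20 replicate 1 stood above the other two, and every ZT 0 liver was far below all of them. The ZT 20 mean was 11.3 times the ZT 0 mean, and the log2 fold change was -3.50 (SE 0.36, adjusted p = 0.0122). These were counts of 228 to 518 at ZT 20 and 24 to 38 at ZT 0. The annotation of Camta1, on the same strand, spans all of Per3, and Camta1 was at a mean of 5.37 CPM at ZT 20 and 3.86 CPM at ZT 0 (adjusted p = 0.619), so reads shared by the 2 genes are uncertain. Per2, whose protein is a core subunit of the repressor complex, was at 84.5, 68.0 and 34.97 CPM at ZT 20 and at 15.3, 15.8 and 9.13 CPM at ZT 0. The lowest ZT 20 liver, replicate 3, still had more Per2 than any ZT 0 liver. The log2 fold change of Per2 was -2.22 (SE 0.32, adjusted p = 0.0468). Over the reported fit and its alternatives, Per2 passed in 9 of 16.

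Cry1, which encodes a cryptochrome that blocks CLOCK and BMAL1, was at 77.3, 89.6 and 73.2 CPM at ZT 20 and at 34.6, 32.9 and 40.2 CPM at ZT 0. The log2 fold change was -1.16 (SE 0.13, adjusted p = 0.0202), which is a 2.23-fold higher mean at ZT 20. Bhlhe40, whose protein DEC1 represses at E-boxes, was at 142.7, 134.1 and 103.4 CPM at ZT 20 and at 51.4, 52.5 and 59.1 CPM at ZT 0. Both genes had less than their lowest night value in every dawn liver, and the change of Bhlhe40 on the log2 scale was -1.22 (SE 0.15, adjusted p = 0.0202).

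The remaining repressors did not pass in edgeR. Cry2, the second cryptochrome, was at 44.6 to 48.4 CPM at ZT 20 and at 29.4 to 34.5 CPM at ZT 0, without overlap. Its log2 fold change was -0.55 (95% interval -0.81 to -0.29), with an adjusted p of 0.238 in edgeR and 0.0454 in DESeq2. Per1 overlapped between the groups, at 21.2 to 26.4 CPM against 18.7 to 36.6 CPM, and its interval ran from -0.36 to 0.69. Ciart, which encodes a repressor of the CLOCK and BMAL1 pair, lay below the count minimum with 22 to 36 counts at ZT 20 and 4 to 22 at ZT 0. Bhlhe41, which encodes DEC2, was below the minimum too, at no more than 0.539 CPM in any of the 6 livers.

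The promoters of 3 of the genes that fell are printed because they hold the letters of the clock's own elements. Each is the stretch from 250 bases before to 50 bases after a RefSeq start site, on the gene's strand in GRCm38.p6, with the matches in capitals. Per3 (chr4:151044616-151044915, minus strand) has the D-box TTATGTAA at 205 and at 158 bases before the start. Cry1 (chr10:85185005-85185304, minus strand) has the E-box CACGTG at 60 bases before the start. Tef (chr15:81802423-81802722, plus strand) has an E-box at 127 bases before the start, and a second promoter of Tef has 1 as well.
Per3: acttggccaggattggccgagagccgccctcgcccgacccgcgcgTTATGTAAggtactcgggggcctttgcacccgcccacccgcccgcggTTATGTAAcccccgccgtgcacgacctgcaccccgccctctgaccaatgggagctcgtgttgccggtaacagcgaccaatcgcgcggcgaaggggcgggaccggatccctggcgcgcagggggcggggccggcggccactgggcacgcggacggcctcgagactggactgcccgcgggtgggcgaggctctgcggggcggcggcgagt
Cry1: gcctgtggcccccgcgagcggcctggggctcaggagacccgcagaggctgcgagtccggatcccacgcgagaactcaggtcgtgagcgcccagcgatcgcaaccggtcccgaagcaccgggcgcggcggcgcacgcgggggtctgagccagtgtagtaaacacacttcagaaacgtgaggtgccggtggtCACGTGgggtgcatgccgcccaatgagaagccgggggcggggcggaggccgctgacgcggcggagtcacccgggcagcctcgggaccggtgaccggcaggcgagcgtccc
Tef: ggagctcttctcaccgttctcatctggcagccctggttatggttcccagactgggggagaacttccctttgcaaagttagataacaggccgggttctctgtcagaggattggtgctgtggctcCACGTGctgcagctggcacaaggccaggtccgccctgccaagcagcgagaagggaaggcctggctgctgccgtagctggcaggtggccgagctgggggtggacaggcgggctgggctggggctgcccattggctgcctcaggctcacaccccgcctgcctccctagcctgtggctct

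Both strands were searched for the E-box letters CACGTG, the D-box letters TTATGTAA and the ROR element letters TAGGTCA and TGGGTCA. Matches of different motifs did not overlap each other in these promoters. Of the 13 genes past the threshold, 10 have a promoter in the table used, with 11 promoters in all. Of the 11 promoters, 3 (27.3%, of Cry1 and Tef) held an E-box, 1 (9.09%, of Per3) a D-box and 0 ROR letters. Over all 32851 promoters of the table, 7.15% held an E-box, 0.938% a D-box and 6.45% ROR letters. The clock lists, whether or not a gene passed, had 23 promoters, of which 26.1% held an E-box, 4.35% a D-box and 8.7% ROR letters. Their E-boxes were those of Cry1, Tef, Per1, Ciart and Bhlhe41, of which only Cry1 and Tef passed. A match describes the letters of these windows and says nothing of a factor at the site.

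Of the REV-ERB and ROR receptors, Nr1d1, Nr1d2 and Rora did not pass. Nr1d1, which encodes REV-ERB alpha, was at 1.53, 1.22 and 1.82 CPM at ZT 20 and 9.85, 8.43 and 2.97 CPM at ZT 0. The 2 groups did not overlap, but ZT 0 replicate 3 was well below the other two, and the log2 fold change of 2.21 (SE 0.44) had an adjusted p of 0.220. DESeq2 gave Nr1d1 an adjusted p of 0.000116, and without ZT 0 replicate 3 edgeR's adjusted p was 0.0210. Over the reported fit and its alternatives, Nr1d1 passed in 4 of 15, with an adjusted p of up to 0.715. Nr1d2, for REV-ERB beta, was at 11.03 to 15.1 CPM at ZT 20 and 15.3 to 17.1 CPM at ZT 0, with an interval of -0.02 to 0.69. Rora, for ROR alpha, overlapped at 91.0 to 119.3 CPM against 100.3 to 122.5 CPM, with an interval of -0.26 to 0.38. Rorb had no count in either group.

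Of the PAR bZIP factors, Dbp and Tef fell. Tef was at 114.5, 129.9 and 89.5 CPM at ZT 20 and at 26.4, 28.3 and 21.6 CPM at ZT 0, a 4.38-fold higher mean at ZT 20 (log2 fold change -2.13, SE 0.17, adjusted p = 0.00212). Dbp, for the D-box binding protein, was low at both times. It had 3.55, 3.54 and 3.71 CPM in the ZT 20 livers and 0.502, 0.718 and 0.385 CPM in the ZT 0 livers, which are 55 to 58 counts against 7 to 12. Its log2 fold change was -2.74 (SE 0.33, adjusted p = 0.0202). Dbp overlaps Sphk2 on the opposite strand by 737 bases, and Sphk2 was at means of 50.0 and 49.9 CPM. Hlf, the third factor of the family, was at 47.8 to 63.3 CPM against 35.6 to 40.9 CPM, without overlap and without passing (log2 fold change -0.58, interval -0.89 to -0.27, adjusted p = 0.317). Nfil3, for a bZIP repressor that competes at D-boxes, overlapped at 53.9 to 67.9 CPM against 62.4 to 71.7 CPM, with an interval of -0.10 to 0.49.

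The clock activators did not pass. Arntl was at 42.5, 42.9 and 40.97 CPM at ZT 20 and 46.6, 39.7 and 46.5 CPM at ZT 0. Its log2 fold change was 0.07 with an interval of -0.19 to 0.33, so that a change of more than about that size in either direction lay outside the interval. Clock was more variable, at 73.6 to 119.7 CPM against 78.5 to 97.7 CPM, with an interval of -0.46 to 0.37. Npas2, a paralogue of Clock, was at 9.99, 12.3 and 12.9 CPM at ZT 20 and 22.8, 17.9 and 17.7 CPM at ZT 0, without overlap. The log2 fold change of Npas2 was 0.73 (SE 0.17), with an adjusted p of 0.316 in edgeR and 0.0494 in DESeq2.

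**Figure D2:**
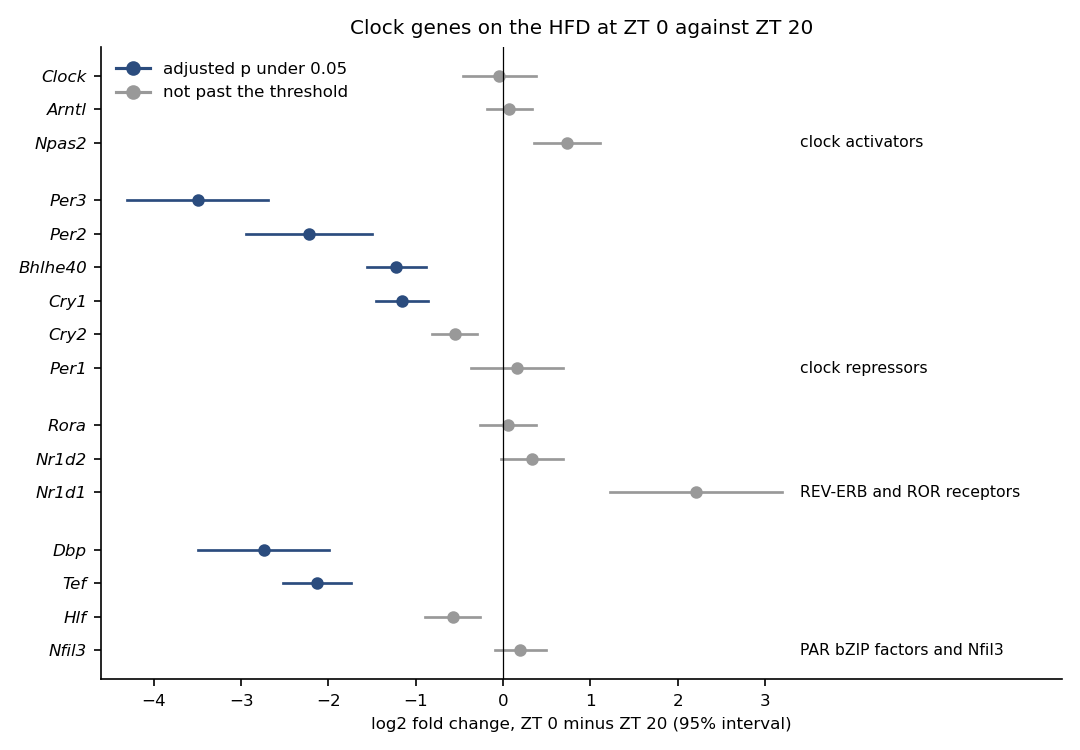
Log2 fold change (ZT 0 minus ZT 20, horizontal) of 16 clock genes, in 4 groups, with the 95% interval of the edgeR fit as a line. The 6 genes past the threshold lie from -3.50 (Per3) to -1.16 (Cry1), while the intervals of Arntl, Clock, Per1, Rora, Nr1d2 and Nfil3 include 0.

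Per kilobase of transcript, Nfil3 was at 29.5 CPM per kb at ZT 20, Bhlhe40 at 26.9, Cry1 at 24.0 and Tef at 14.2. At ZT 0, Nfil3 was at 33.8 CPM per kb, Bhlhe40 at 11.6, Cry1 at 10.8 and Rora at 8.35. Dbp and Per3 were at the low end at ZT 0, at 0.179 and 0.191 CPM per kb.

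Outside the clock lists, 5 genes fell and 1 rose. Inmt, which encodes indolethylamine N-methyltransferase, was the most abundant of them, at 986.6, 794.5 and 747.0 CPM at ZT 20 and 329.3, 360.3 and 394.6 CPM at ZT 0 (log2 fold change -1.22, SE 0.16, adjusted p = 0.0220). Marveld1, for a membrane protein with a MARVEL domain, was at 56.3, 59.9 and 48.5 CPM against 22.2, 28.4 and 25.02 CPM (-1.12, SE 0.14, adjusted p = 0.0202). Tk1, for thymidine kinase of the nucleotide salvage pathway, was at 56.2, 57.2 and 53.1 CPM against 31.4, 23.8 and 20.4 CPM (-1.14, SE 0.16, adjusted p = 0.0428). Each of these genes was about 2-fold higher at night with no overlap. The annotation of Tk1 overlaps that of Afmid on the opposite strand by 169 bases, and Afmid was at a mean of 62.5 CPM at ZT 20 and 42.5 CPM at ZT 0. The kit did not mark strand.

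Col27a1, for a fibrillar collagen chain, was at 53.9, 33.2 and 48.9 CPM at ZT 20 and 17.9, 15.1 and 16.2 CPM at ZT 0 (log2 fold change -1.47, SE 0.18, adjusted p = 0.0202). Lingo4, for a leucine-rich repeat membrane protein, was at 5.03, 5.61 and 8.89 CPM against 0.816, 1.08 and 0.440 CPM (-3.06, SE 0.38, adjusted p = 0.0202). Whether some Lingo4 reads run on from a neighbouring gene was not tested.

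Hectd2os, the 1 gene that rose, is a transcript from the strand opposite to Hectd2 on chromosome 19 (36614052 to 36705641, minus strand, mm10). It was at 7.78, 6.65 and 12.3 CPM at ZT 20 and 36.3, 30.7 and 27.3 CPM at ZT 0 (log2 fold change 1.82, SE 0.23, adjusted p = 0.0202). Every dawn liver had more than 2 times the level of the highest night liver. The annotation of Hectd2os overlaps that of Hectd2 by 7084 bases, and without strand the reads of an overlap cannot be told apart. Hectd2 itself was at a mean of 4.32 CPM at ZT 20 and 4.08 CPM at ZT 0 (log2 fold change -0.08).

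**Figure D3:**
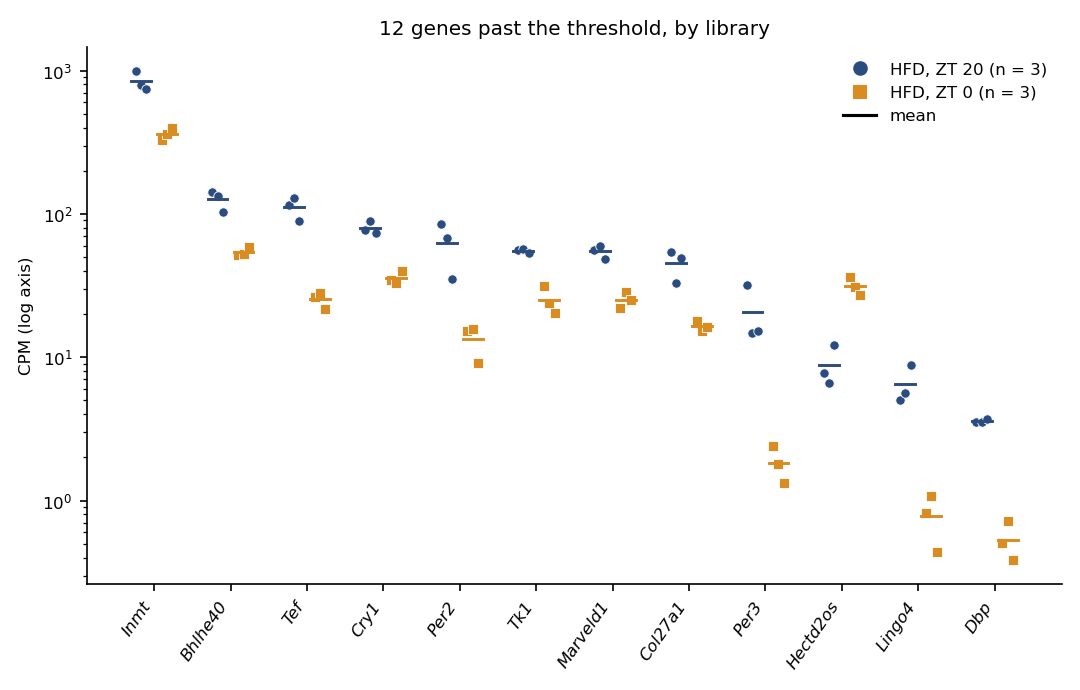
CPM (log axis) of 12 genes past the threshold in each library, ordered by the ZT 20 mean, with circles for ZT 20, squares for ZT 0 and a bar for each mean (n = 3). In no gene do the 2 groups overlap, and Hectd2os is the 1 gene with its squares above its circles.

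The other times of the HFD day show where these 2 groups lay in the daily range of each gene. The values are a description with no test, since other contrasts would share the same libraries. Of the 12 genes that fell, 11 had a higher mean at ZT 16 than at ZT 20, the exception being Cry1, which was at 58.1 CPM at ZT 16 and 80.0 CPM at ZT 20. Of the 12, 8 had their lowest mean of the 6 HFD times at ZT 0. Dbp was at 99.9 to 119.5 CPM at ZT 8, and its mean was 3.60 CPM at ZT 20, 0.535 CPM at ZT 0 and 27.3 CPM at ZT 4. Nr1d1 was at 60.4 to 77.2 CPM at ZT 4, so the ZT 0 livers stood between ZT 20, its lowest mean, and that level. Hectd2os was at 1.69 to 6.41 CPM at ZT 16 and at 21.8 to 28.8 CPM at ZT 4. Arntl and Npas2 had their highest HFD means at ZT 0, and Clock at ZT 20.

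**Figure D4:**
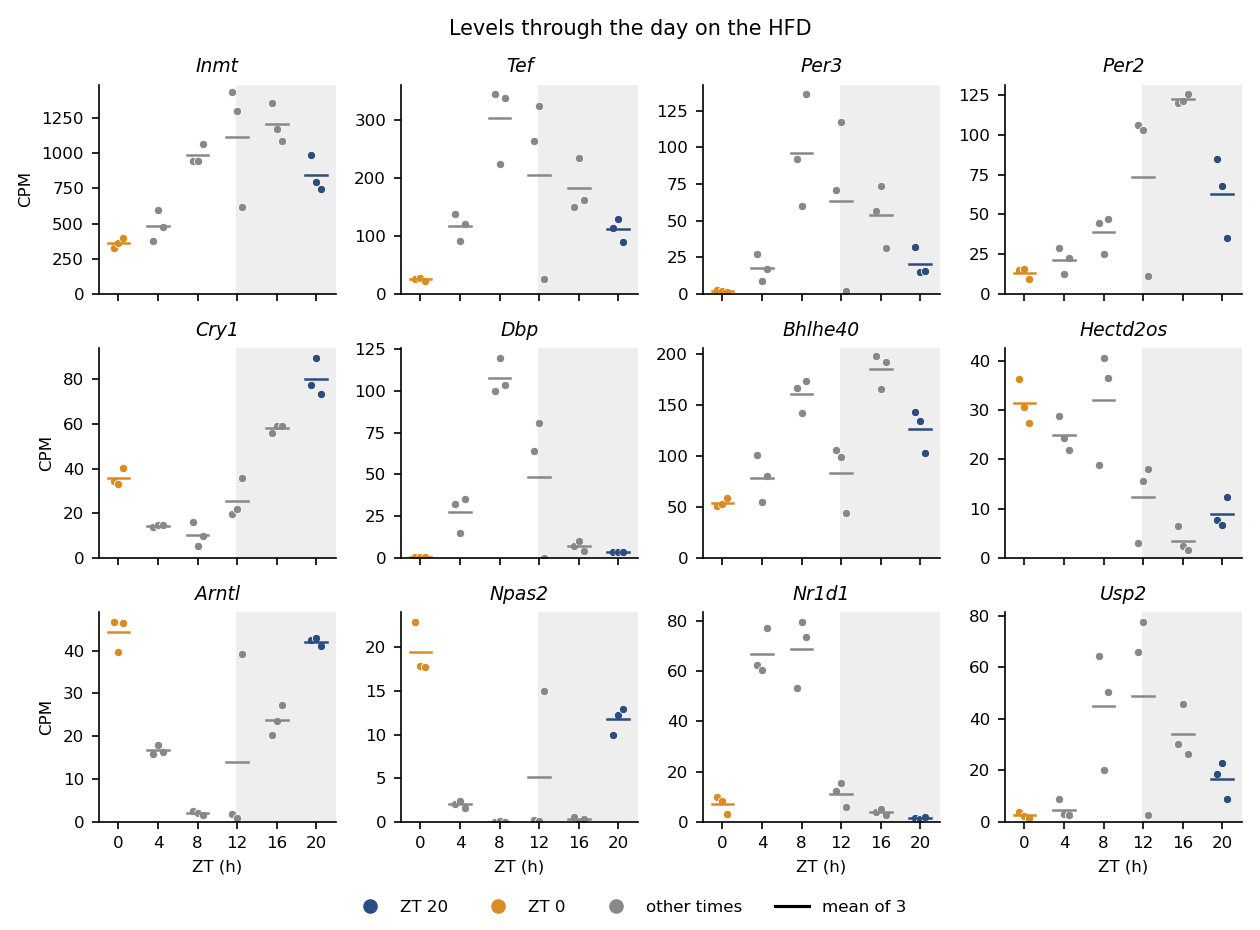
CPM of 12 genes (vertical, a linear axis from 0 in each panel) against ZT in hours on the HFD, with 1 point per library and a bar for each mean of 3, and the dark phase in grey. From ZT 20 (blue) to ZT 0 (orange) Inmt, Tef, Per3, Per2, Cry1, Dbp and Bhlhe40 are lower and Hectd2os is higher, and at ZT 12 the third library stands away from the other two in most panels.

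At ZT 0 the mice on the AIN93G diet, which supplied 16% of its energy as fat, gave levels that can be set beside those of the HFD livers, with no test. Tef was at 18.8 to 26.3 CPM, Per3 at 1.53 to 3.66 CPM, Dbp at 0.256 to 0.858 CPM and Arntl at 39.9 to 42.8 CPM in the 3 AIN93G livers, ranges that overlap those of the HFD. Per2, Marveld1 and Tk1 overlapped too. Other genes did not: Cry1 was at 43.4 to 45.7 CPM on AIN93G and 32.9 to 40.2 CPM on the HFD, and Bhlhe40 at 62.7 to 76.1 CPM and 51.4 to 59.1 CPM. Inmt was at 398.2 to 617.3 CPM on AIN93G and 329.3 to 394.6 CPM on the HFD, Col27a1 at 23.96 to 32.7 CPM and 15.1 to 17.9 CPM, and Lingo4 at 1.09 to 2.69 CPM and 0.440 to 1.08 CPM. Those genes were higher on AIN93G, while Hectd2os was lower, at 12.8 to 25.4 CPM beside 27.3 to 36.3 CPM on the HFD. All were chosen by a test that used these same HFD ZT 0 livers, which favours differences in these directions. Of all 12037 genes, 6.64% were higher on AIN93G at ZT 0 without overlap and 6.71% lower. Those genes were not chosen in that way, so the shares are not a like background for the named genes. The step from ZT 20 to ZT 0 was not compared between diets, since the AIN93G samples of ZT 20 had Alb at only 53.4 to 64.8 CPM of the unscaled total.

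Among 24 known outputs of the clock, Marveld1 was the 1 that passed (4.17%, beside 0.108% of all genes tested), and the median log2 fold change was -0.20. The groups did not overlap in 3 members that were lower (12.5%, beside 6.80% of all genes) and in 1 that was higher (4.17%, beside 6.94%). Usp2, for a clock-controlled deubiquitinase, was at 18.8, 22.8 and 8.76 CPM at ZT 20 and 3.89, 2.33 and 1.59 CPM at ZT 0 without overlap. Its log2 fold change of -2.69 (SE 0.41) missed the threshold in edgeR (adjusted p = 0.0627) and passed in DESeq2 (2.93e-10). Wee1, for a kinase that holds back mitosis, was at 4.85 to 7.35 CPM against 1.196 to 3.08 CPM (adjusted p = 0.320 in edgeR and 0.0147 in DESeq2). Cdkn1a, for the cell cycle inhibitor p21, was higher at ZT 0, at 6.13, 9.70 and 15.4 CPM against 36.9, 27.2 and 47.7 CPM (log2 fold change 1.85, SE 0.31, adjusted p = 0.109 in edgeR and 2.37e-07 in DESeq2). These genes, and those named from DESeq2 in the paragraphs on metabolism, were picked after their values were seen.

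Genes of de novo lipogenesis tended to lower values at ZT 0, without any that passed in edgeR. Of 22 members tested, 19 had a fold change below 0, and the median log2 fold change was -0.48 beside 0.003 for all genes. The groups did not overlap in 5 members that were lower (22.7%, beside 6.80% of all genes tested) and in 0 that were higher. Fasn, for fatty acid synthase, was at 1136.3, 555.9 and 527.5 CPM at ZT 20 and 768.1, 269.2 and 302.0 CPM at ZT 0, with an interval of -1.67 to 0.22. Scd1, for stearoyl-CoA desaturase, was at 4693.3, 1992.6 and 2774.1 CPM against 2081.2, 921 and 2244.2 CPM. The 2 groups overlapped in both genes, and the replicates of 1 time differed by more than the means did. Thrsp, an activator of lipogenic genes, was at 610.3, 365.7 and 359.2 CPM against 209.8, 50.3 and 57.2 CPM (log2 fold change -2.07, SE 0.51, adjusted p = 0.320). ZT 0 replicate 1 had about 4 times the Thrsp of the other dawn livers, and without it the log2 fold change was -3.05 with an adjusted p of 0.00333. Over the reported fit and its alternatives, Thrsp passed in 2 of 16, with an adjusted p of up to 0.74. In DESeq2, Acacb, for acetyl-CoA carboxylase beta, was the list's 1 call (adjusted p = 0.0211).

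Sterol synthesis had 0 of 25 members past the threshold and none without overlap, with a median of -0.13. In the bile acid list of 19, 3 members were higher and 3 lower without overlap (15.8% each way, beside 6.94% and 6.80% of all genes tested) and 0 passed. Cyp7a1, for the rate-limiting enzyme of bile acid synthesis, overlapped at 46.7 to 79.2 CPM against 27.4 to 64.9 CPM. Abcb11, for the bile salt export pump, was at 747.0 to 780.9 CPM against 949.8 to 1110.7 CPM (log2 fold change 0.41, SE 0.13, adjusted p = 0.482). The sterol exporters Abcg5 and Abcg8 were the other members that were higher without overlap, with log2 fold changes of 0.46 and 0.76. Of 39 genes of fat oxidation and ketogenesis, 0 passed, 2 were lower without overlap (5.13%, beside 6.80% of all genes) and the median was 0.11.

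Glucose metabolism gave no call either. Of 16 gluconeogenic and insulin-sensing genes the median was -0.01, and G6pc, for glucose-6-phosphatase, was the 1 member without overlap (6.25%, beside 6.94% of all genes higher), at 435.9 to 689.0 CPM at ZT 20 and 726.8 to 818.9 CPM at ZT 0 (adjusted p = 0.553). Pck1, for the first committed enzyme of gluconeogenesis, overlapped at 1509.5, 2025.4 and 3526.0 CPM against 3960.7, 3850.5 and 3493.1 CPM. Of 20 genes of glycolysis and glycogen, 16 had a fold change below 0 and the median was -0.31. Pfkfb3, whose enzyme drives glycolysis, went the other way, at 4.11 to 5.58 CPM against 7.53 to 12.9 CPM (adjusted p = 0.269 in edgeR and 0.0116 in DESeq2).

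Of 14 glucocorticoid-responsive genes tested, 0 passed in edgeR. Lpin1, for a phosphatidate phosphatase of lipid synthesis, was at 62.6, 59.7 and 59.7 CPM at ZT 20 and 248.9, 158.5 and 100.1 CPM at ZT 0. The ZT 20 livers were nearly equal and the ZT 0 livers spread widely above them (log2 fold change 1.48, SE 0.27, adjusted p = 0.178). DESeq2 gave Lpin1 an adjusted p of 3.74e-06. Heat shock proteins and cold-inducible RNA binding proteins had 20 members tested, of which 6 were lower (30%) and 1 higher (5%) without overlap, beside 6.80% and 6.94% of all genes tested. Hspb1, for a small heat shock protein, was at 49.7, 50.7 and 45.5 CPM against 12.0, 28.3 and 23.5 CPM (adjusted p = 0.266 in edgeR and 0.00101 in DESeq2), and Cirbp, for a cold-inducible RNA binding protein, overlapped at 9.56 to 14.3 CPM against 12.4 to 17.1 CPM. Hamp, for the iron hormone hepcidin, was at 601.4, 987.3 and 519.3 CPM against 206.9, 374.1 and 347.7 CPM (adjusted p = 0.317 in edgeR and 0.00101 in DESeq2).

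Of 76 cytosolic ribosomal protein genes tested, 72 had a fold change below 0, with a median of -0.18, and 5 were lower without overlap, which at 6.58% is about the share of all genes (6.80%). The 13 mitochondrially encoded transcripts all had a fold change below 0, with a median of -0.41, and 8 of 13 were lower without overlap (61.5%, beside 6.80% of all genes). Mitochondrial transcripts took 3.76% to 5.19% of the counts at ZT 20 and 3.44% to 3.62% at ZT 0, and the highest share was that of ZT 20 replicate 1. Neither list had a member past the threshold in edgeR. In the remaining lists (urea cycle and amino acids, immediate early genes, ER chaperones, ribosome biogenesis, cytochromes P450, growth hormone axis, acute phase, cell cycle, autophagy, iron) 0 members passed in edgeR either. Their medians ran from -0.15 to 0.05. Cyp3a13, for a xenobiotic cytochrome, was at 252.6 to 280.9 CPM against 155.7 to 177.5 CPM (log2 fold change -0.67, SE 0.13, adjusted p = 0.178 in edgeR and 0.000495 in DESeq2).

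**Figure D5:**
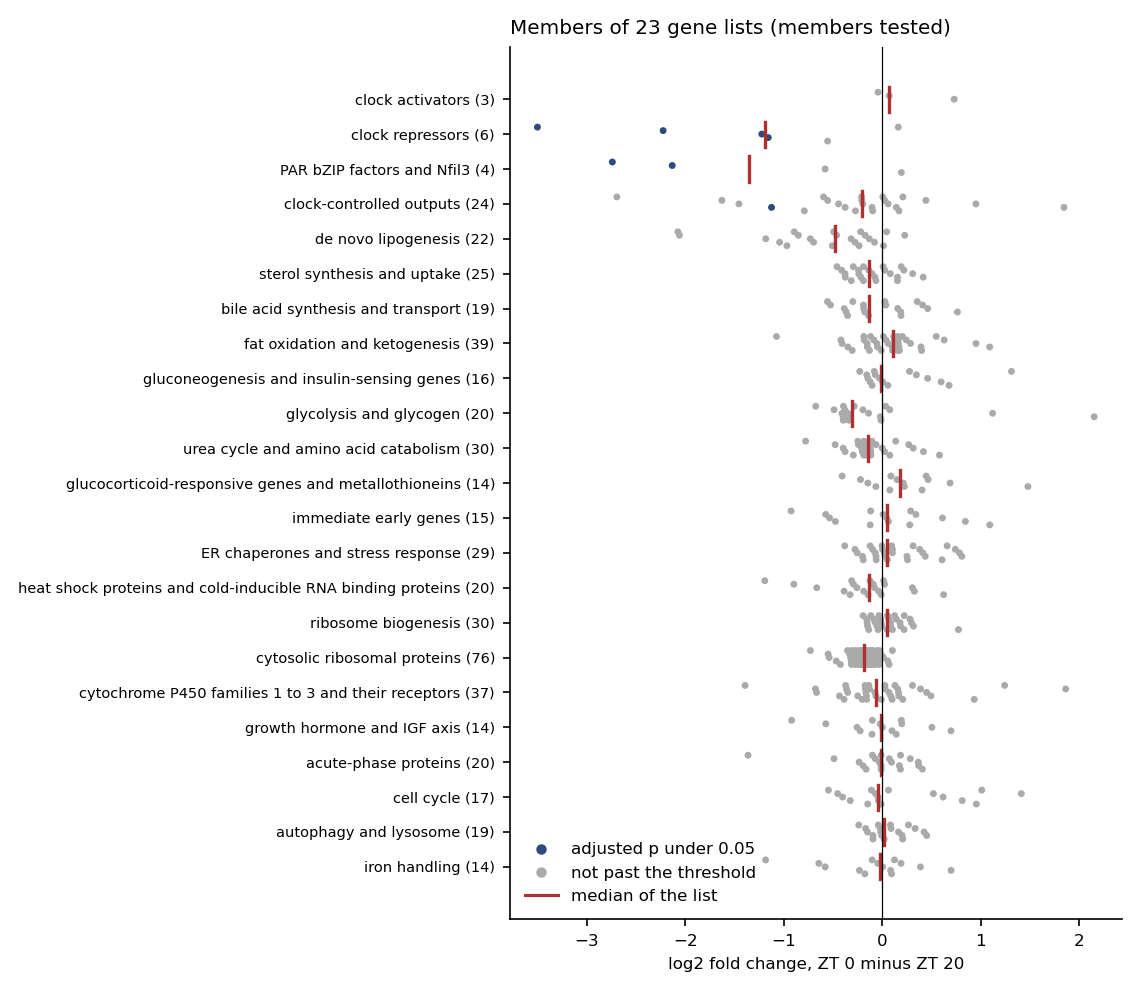
Log2 fold change (ZT 0 minus ZT 20, horizontal) of tested members of 23 gene lists, 1 point a gene, with the number tested in parentheses and the list's median in red. The points past the threshold (blue) lie in the clock lists and, for Marveld1, among the clock-controlled outputs, and the median of de novo lipogenesis is -0.48.

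The 3 ZT 20 livers were not alike in some metabolic genes. Igfbp1, which insulin represses, was at 35.7 and 35.9 CPM in replicates 1 and 2 and at 295.6 CPM in replicate 3, beside 225.9 to 379.4 CPM at ZT 0. Rgs16, a regulator of G protein signalling, was at 4.96 and 2.81 CPM in replicates 1 and 2 and 35.4 CPM in replicate 3, beside 20.3 to 38.7 CPM at ZT 0. Tsku, for a secreted liver protein, was at 43.8 and 48.8 CPM and then 10.1 CPM, beside 7.48 to 16.7 CPM at ZT 0. In these 3 genes replicate 3 had the level of the dawn livers, and its Pck1, given above, and Irs2 (89.8 CPM, beside 55.8 to 98.6 CPM at ZT 0) lay in the dawn range too. Its Cry1 (73.2 CPM) and Dbp (3.71 CPM) were close to those of the other night livers. Its Per2 (34.97 CPM) and Usp2 (8.76 CPM) were well below theirs, though above all dawn livers. These genes were picked after their values were seen, and no test was made of this split. Without ZT 20 replicate 3, 20 genes passed in edgeR, 9 higher and 11 lower. They included 9 of the 13 together with Igfbp1 (log2 fold change 3.08), Rgs16 (2.83), Cdkn1a (2.23, adjusted p = 0.0315) and Usp2 (lower). Igfbp1, Rgs16 and Usp2 were named here for their levels in the library left out, so that fit is no test of them. None of them passed in the reported fit. Over all 16 fits, Igfbp1 and Rgs16 passed in 2 each and Usp2 in 6.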

How the data were processed

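RNA of 42 samples labelled as liver was sequenced, 3 libraries for each diet and time, from poly(A) libraries of a kit that does not mark strand. The authors deposited raw read counts per gene on mm10. The submitters' processing notes name fastp, STAR, HTSeq 0.6.1, DESeq and STAR-Fusion without roles, and settings are not given in the sources used here. The members and lists were chosen with earlier results of these data known. Named genes are all clock genes, members of other lists that passed or that a list is known by, and the largest changes among genes past the threshold. Other names were picked after their values were seen. Some genes, 1 of the 13 past the threshold among them, are not reported here, but they stay in the fit and in all counts and medians.

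The 3 HFD ZT 0 and 3 HFD ZT 20 libraries were fitted with edgeR 4.0.16 (R 4.3.3), using glmQLFit and glmQLFTest, TMM scaling and genes with a mean of at least 25 counts, after the count minimum in the study's methods. Of 54532 genes, 28897 had no count in the 6 libraries. P-values were adjusted by Benjamini-Hochberg over the 12037 genes tested, with a threshold of 0.05. CPM used the same TMM factors. DESeq2 1.42.0, other scalings and filters, 18 and 15 HFD libraries in 1 fit, and leaving out each library were the alternatives. The tests were tested on simulated data. Coordinates are those of the deposited table, identical to GENCODE M21 for all 13 genes past the threshold. Promoters are from RefSeq (GRCm38.p6). Replicates of a group differed by far more than counting noise, with a chi-square per degree of freedom of 34.7 to 61.5. Totals of 15123633 to 17857479 counts a library, and 3 livers a group, limit the precision.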

Additional observations from a re-analysis of the deposited data

How the results depend on the processing

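The 13 calls kept their direction in every alternative that tested them. Tef passed in 15 of 16 fits, the reported one included. Per3 passed in 13 of 15, and 10 further genes in 8 to 12 fits. The count of calls moved with DESeq2, which gave 95 (32 higher, 63 lower), and with no filter on low counts, which gave 297 (129 higher, 168 lower) of 25635 genes. With 18 HFD libraries in 1 fit it was 1 (0 higher, 1 lower, and 692 genes at an unadjusted p under 0.05). With 15 libraries, ZT 12 left out, an alternative chosen after seeing the data, it was 9. The cause was not tested. DESeq2's size factors in edgeR gave 13 calls, and library size alone gave 11, without Per2 and Tk1. A minimum of 25 counts in each library gave 10, because Dbp, Lingo4 and Per3 were then not tested, and both of the other filters gave 14.

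Leaving out 1 library gave 3 to 20 calls, with 0 to 9 higher and 3 to 14 lower. Without ZT 20 replicates 1, 2 and 3 there were 3, 4 and 20 calls. Without ZT 0 replicates 1, 2 and 3 there were 16, 3 and 10. Per2 passed in 9 of 16 fits and Tk1 in 8 of 16. Having 3 livers a group and counts as low as 7 for Dbp set the precision. No paired analysis was possible because no label ties a liver of ZT 0 to one of ZT 20, and the numbers at the ends of the titles are shared across mice.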

Other observations

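Among the HFD livers of ZT 12, replicate 3 had Arntl at 39.3 CPM, Dbp at 0.133 CPM and Nr1d2 at 12.7 CPM, within or near the range of the ZT 0 livers (39.7 to 46.6 CPM for Arntl), while replicates 1 and 2 had Arntl at 1.81 and 0.955 CPM and Dbp at 64.2 and 80.9 CPM. ZT 24 is the same clock time as ZT 0, but the 1 HFD library of ZT 24 with hepatocyte transcripts (replicate 3, 17.6% of counts in hepatocyte markers) had Arntl at 1.17 CPM and Dbp at 69.7 CPM, near ZT 12 replicates 1 and 2. The other HFD libraries of ZT 24 had 0.229% and 0.309% of their counts in hepatocyte markers. None of these libraries entered the reported fit of ZT 0 against ZT 20, though those of ZT 12 were in the alternative with 18 HFD libraries.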
